A study of Mus musculus with 28 samples.

Results

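The Hedgehog pathway genes described here were 8 of the 22180 genes measured in newborn mouse lung: the ligand Shh, the receptor Ptch1, the ligand-binding protein Hhip, the signal transducer Smo, the inhibitor Sufu and the transcription factors Gli1, Gli2 and Gli3. Each was taken by name and stood for by the brightest probe set that the platform annotation gives to that gene alone. The set was chosen by a measured value in 1 respect, which is that Ptch1 lay below the additive level in untreated double-knockout lungs. Every value of Ptch1 that rests on untreated arrays is therefore given as a description with no test, and Ptch1 was tested only among the lungs of N-acetyl cysteine (NAC) pregnancies. The other 7 genes were tested in every comparison.

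HRas and NRas are small GTPases that relay growth factor signals, and the study compared whole lungs of mice lacking either or both on the day of birth (postnatal day 0), with 1 animal per array and 28 arrays. With both genes knocked out there were 4 arrays from dams given 0.5% NAC, an antioxidant and glutathione precursor, throughout pregnancy (DKO+NAC) and 5 from untreated dams (DKO). The single knockouts comprised 3 HRas-KO+NAC, 3 HRas-KO, 3 NRas-KO+NAC and 3 NRas-KO arrays. There were 4 Control+NAC and 3 Control arrays, whose genotype the labels give only as Control. Strain, alleles, sex and any restriction of the deletions to a cell type were not given in the sources used here. Per its title, the series concerns DKO mice that die of severe respiratory distress.

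Shh is secreted by the airway epithelium of the developing lung and acts on the mesenchyme around it, where it is needed for branching and for growth of the mesenchymal layer. Without ligand, Ptch1 keeps Smo inactive, and Sufu holds the Gli proteins in the cytoplasm or lets them be cut to repressors. Bound Ptch1 frees Smo, which moves into the primary cilium and releases Gli2 and Gli3 as activators. Gli1, Ptch1 and Hhip are themselves transcribed in response, so their transcripts are commonly read as a measure of the signal, and Ptch1 and Hhip in turn bind ligand and dampen it.

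RefSeq promoter sequences (250 bases before to 50 after the gene's start, build GRCm38.p6) were matched for 6 of the 8 genes. Those of Ptch1 and Hhip are shown because both genes are known Gli targets, of which Ptch1 had its lowest untreated levels in DKO lungs and Hhip did not. Ptch1 lies at chr13:63565686-63565985 and Hhip at chr8:80057959-80058258, both on the minus strand and written here in the direction of transcription. Capitals mark the letters CCACCC, the core of the Gli binding site.
Ptch1: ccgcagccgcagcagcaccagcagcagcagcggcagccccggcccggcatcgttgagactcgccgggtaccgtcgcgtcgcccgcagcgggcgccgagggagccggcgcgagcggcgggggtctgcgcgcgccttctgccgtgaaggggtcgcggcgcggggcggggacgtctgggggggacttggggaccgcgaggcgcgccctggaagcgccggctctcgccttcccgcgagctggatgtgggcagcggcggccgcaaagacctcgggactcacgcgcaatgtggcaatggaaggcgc
Hhip: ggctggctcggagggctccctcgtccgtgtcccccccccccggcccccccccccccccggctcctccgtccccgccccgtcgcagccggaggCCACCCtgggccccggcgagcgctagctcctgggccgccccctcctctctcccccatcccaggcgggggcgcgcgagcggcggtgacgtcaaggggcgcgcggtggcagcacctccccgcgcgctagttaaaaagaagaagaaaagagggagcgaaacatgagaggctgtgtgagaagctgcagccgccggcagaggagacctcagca
The Ptch1 window had a GC content of 76.3% and 47 CpG dinucleotides, and the Hhip window 73.7% and 30, against a median GC content of 52.7% over 32851 promoters. On both strands, the full consensus GACCACCCA was in none of the 6 windows and in 0.253% of all promoters (83 of 32851). Its core CCACCC, which the full consensus contains, was in those of Hhip, Smo, Gli2 and Gli3, 4 of 6, and in 31.5% of all promoters, and it was in neither the Ptch1 nor the Sufu window. A match of these letters is a description of the sequence, not a binding site.

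All values are log2 values made by the robust multi-array average (RMA), and a difference between groups is a log2 fold change with its standard error (SE). limma fitted all 22180 genes on the 28 arrays together, and called a gene where its p, adjusted by Benjamini-Hochberg over those genes, was under 0.05. Array medians lay between 5.25 and 5.41. Nras, the only knocked-out gene analysed here, read 7.40 to 7.80 on the NRas-KO and DKO arrays of both arms except 1 and at least 8.07 on all Control and HRas-KO arrays. The exception, DKO+NAC replicate 4, read 8.08. The arrays fit their tissue label, with a mean level of the 14 lung epithelial markers between 9.43 and 9.77 on every array, and the skeletal muscle list (12 genes) was raised on 5 untreated arrays: DKO replicates 1, 3 and 5 by 1.40, 0.44 and 0.86, NRas-KO replicate 2 by 1.39 and Control replicate 3 by 0.68 above the gene means, with -0.05 the next highest. Heart muscle genes (10) were raised on HRas-KO+NAC replicate 2 (0.72) and HRas-KO replicates 1 and 2 (0.89 and 0.92), and epidermis and oesophagus genes (8 measured) on NRas-KO replicates 2 and 3 and DKO replicate 5 (1.46, 0.65 and 0.79). Red blood cell genes (3 measured of 8) averaged 0.64 in untreated DKO, against means of -0.12 for HRas-KO, -0.03 for NRas-KO and -0.13 for Control lungs. The part of these markers in the differences below was not tested.

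The start of the animal code in the sample titles may mark a litter or a batch, which no label states. None of 10 code starts occurred in both arms, and the 3 of the untreated DKO arrays occurred in no other group, so code start cannot be told apart from NAC or from the untreated DKO genotype. The HRas-KO+NAC arrays are labelled NAC only in their source names, and all 3 share 1 code start. A general treatment note names 3 samples as treated, while the sample labels give NAC for 14, and the sample labels were followed. In whole lung, fewer cells of a type and less RNA per cell cannot be told apart. Among NAC arrays, those with the code start T195 (DKO+NAC replicate 1 and NRas-KO+NAC replicate 2) stood apart in Hhip, Smo, Gli2 and Shh, as described with those genes.

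**Figure D1:**
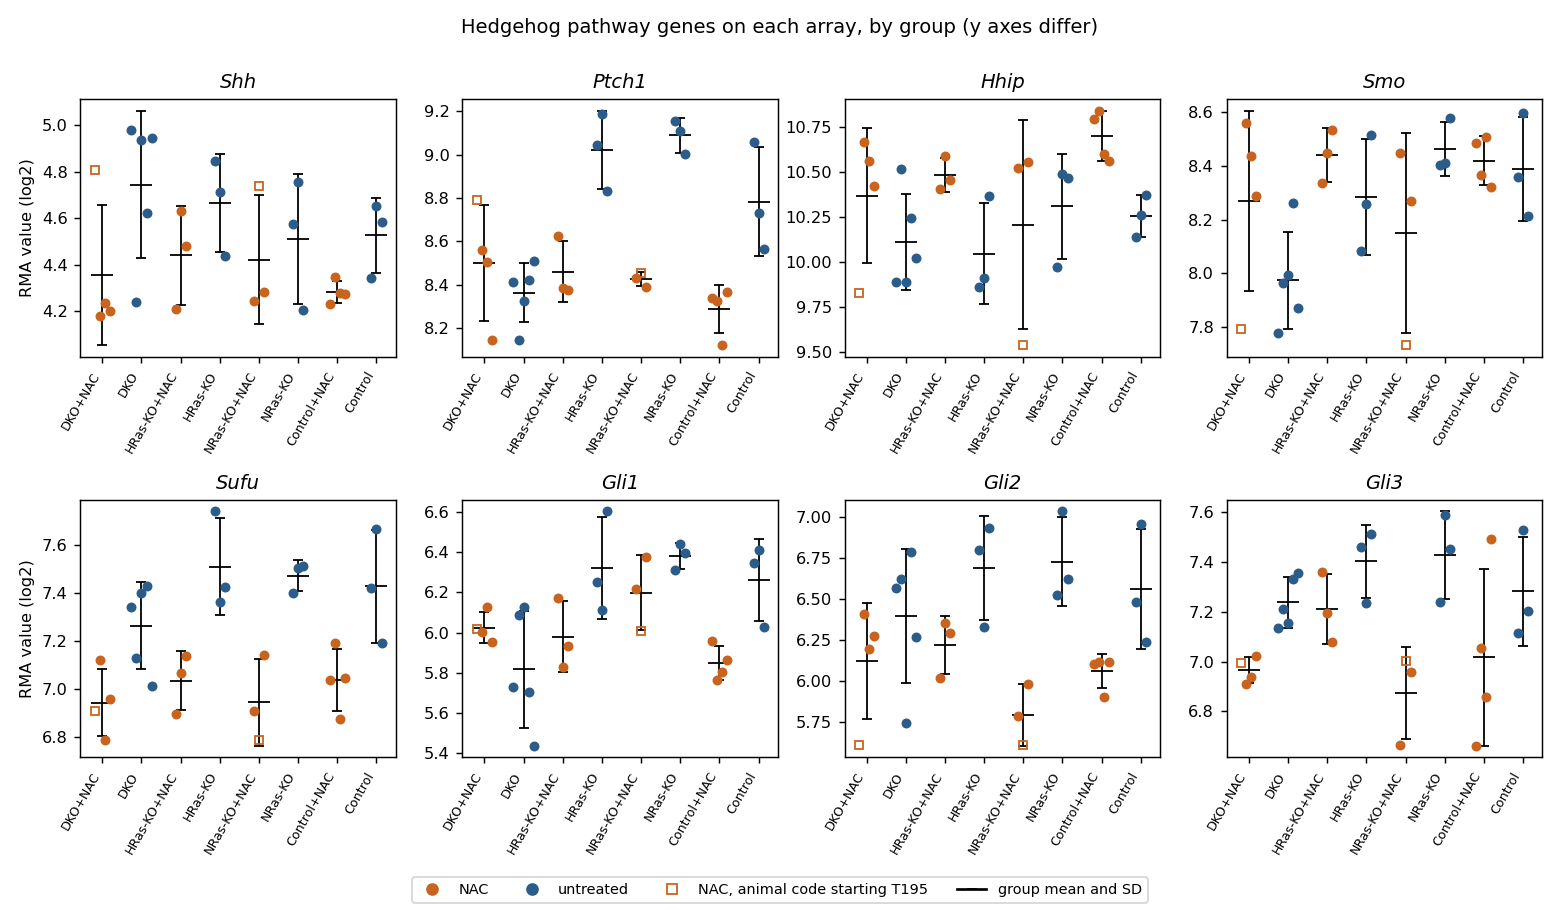
RMA value (log2, y axis, a separate scale for each gene) of the 8 Hedgehog pathway genes on each of 28 arrays, by group; NAC arrays are orange and untreated arrays blue, open squares are the arrays with code start T195, and bars are the group mean and SD. All 5 untreated DKO arrays lie below every untreated array of the other genotypes for Ptch1, and the open squares lie lowest among NAC arrays for Hhip, Smo and Gli2.

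Ptch1, the receptor, was lowest among untreated lungs in DKO. Its probe set (17293607) read 8.41, 8.15, 8.32, 8.42 and 8.51 in DKO lungs, against 9.05, 9.19 and 8.83 in HRas-KO, 9.16, 9.11 and 9.001 in NRas-KO and 9.06, 8.73 and 8.56 in Control lungs. No DKO array overlapped any of the other 9 untreated arrays, and the nearest was Control replicate 3 at 8.56. The mean was 8.36 ± 0.14 (SD, n = 5) in DKO and 8.78 ± 0.25 (n = 3) in Control, a difference of -0.42 ± 0.12 (SE), or 0.748 times the Control level. DKO lay further below the single knockouts, by -0.66 ± 0.12 against HRas-KO and -0.73 ± 0.12 against NRas-KO. In both single knockouts the Ptch1 mean was above Control, by 0.24 ± 0.14 in HRas-KO and 0.31 ± 0.14 in NRas-KO, with overlapping arrays.

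Adding the separate changes of the single knockouts to Control gives the level at which both losses would be additive on the log2 scale. For Ptch1 in untreated lungs the DKO mean of 8.36 stood against an additive level of 9.33, a difference of -0.96 ± 0.18. This is the value on which Ptch1 was chosen, with rank 5 among genes below additive. The last genes inside the threshold were Ccdc8 (-0.89 ± 0.19) and Gimap4 (-1.30 ± 0.28), and the first outside were Fam168b (-0.78 ± 0.17) and Limd1 (-0.72 ± 0.16).

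Among NAC lungs, where Ptch1 was tested, no difference of the DKO was called. Its values were 8.79, 8.56, 8.50 and 8.15 in DKO+NAC lungs, 8.62, 8.38 and 8.37 in HRas-KO+NAC, 8.43, 8.46 and 8.39 in NRas-KO+NAC and 8.34, 8.33, 8.12 and 8.36 in Control+NAC. DKO+NAC spanned the range of all NAC arrays but for the lowest, Control+NAC replicate 3. Its low end was replicate 4 alone (8.15), the array with Nras at 8.08. The other DKO+NAC arrays lay above every Control+NAC array. Without replicate 4 the difference from Control+NAC was 0.33, and over all alternatives its limma adjusted p ran between 0.403 and 0.963. The DKO+NAC mean of 8.50 ± 0.27 (n = 4) stood against 8.29 ± 0.11 (n = 4) in Control+NAC, a difference of 0.21 ± 0.12 (95% confidence interval -0.03 to 0.46, limma adjusted p = 0.587). Against the additive level of 8.60 it differed by -0.10 ± 0.18 (-0.47 to 0.27, adjusted p = 0.994).

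As a description across arms, Ptch1 was lower in NAC than in untreated lungs of the 3 other genotypes, with differences of -0.56 ± 0.14 for HRas-KO, -0.66 ± 0.14 for NRas-KO and -0.50 ± 0.13 for Control lungs and no overlap of arrays in any of them. In DKO the difference between NAC and untreated lungs was 0.14 ± 0.11 with overlapping arrays. The departure from the additive level thus differed by 0.87 ± 0.26 between the NAC and the untreated arm. Leaving out the 5 arrays high in skeletal muscle genes gave -0.61 for DKO against Control and -0.92 for the departure from additive, both untreated. These values and the difference of 0.87 rest on the untreated arrays by which Ptch1 was chosen. They are therefore no separate support for its low DKO level.

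**Figure D2:**
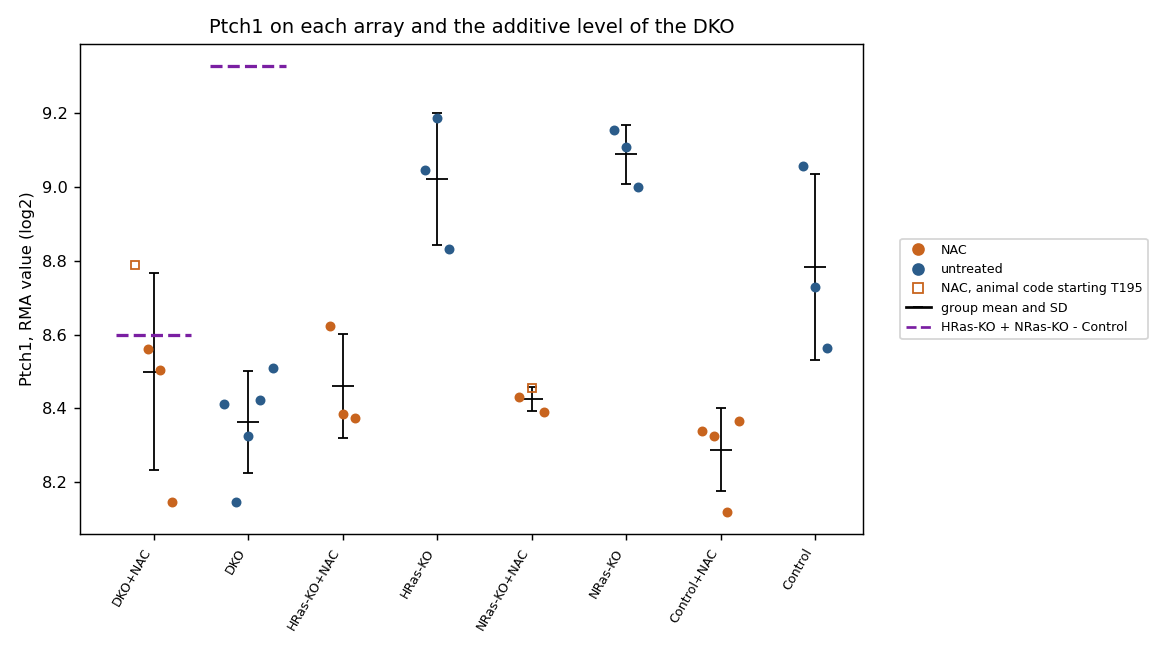
Ptch1 RMA value (log2, y axis) on each array by group, with group means and SD (bars) and dashed lines at the additive level of the DKO in each arm (HRas-KO + NRas-KO - Control). The untreated DKO mean of 8.36 lies below its additive level of 9.33, while the DKO+NAC mean of 8.50 lies near its own of 8.60.

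Of the 7 other genes, limma called 0 in untreated DKO against Control lungs, where 3.83% of all genes were called (850 of 22180). It called 1 lower in DKO against HRas-KO, with 5.63% of all genes called, and 1 lower in DKO against NRas-KO, with 4.95%. Both calls were Gli1. Of the other pairs, HRas-KO against Control and NRas-KO against Control had no call, nor had any gene tested (0% in both, with 190 and 231 genes at an unadjusted p under 0.05). For the untreated departure from additive, which the choice of Ptch1 used, 0 of the 7 and 0.225% of all genes (50) were called. Estimates of the 7 tested genes were negative for 6 in DKO against Control, with a median of -0.16 beside 0.02 over all genes.

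Gli1, the Gli factor that is itself a target of the signal, was lower in untreated DKO lungs than in either single knockout. It read 5.73, 6.09, 6.13, 5.70 and 5.44 in DKO, against 6.25, 6.11 and 6.60 in HRas-KO, 6.31, 6.44 and 6.40 in NRas-KO and 6.34, 6.41 and 6.03 in Control. DKO replicates 2 and 3 were the highest of that group and lay above the lowest Control array, replicate 3 lay also above the lowest HRas-KO array, and all DKO arrays lay below NRas-KO. The DKO mean of 5.82 ± 0.29 (n = 5) differed from HRas-KO at 6.32 ± 0.25 (n = 3) by -0.51 ± 0.13 (SE, adjusted p = 0.0245). It differed from NRas-KO at 6.38 ± 0.07 (n = 3) by -0.56 ± 0.13 (adjusted p = 0.0131). Against Control at 6.26 ± 0.20 (n = 3) the difference of -0.45 ± 0.13 did not pass (adjusted p = 0.0616), nor did that from the additive level (-0.62 ± 0.20, adjusted p = 0.214).

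The Gli1 calls depended on single arrays. The difference from HRas-KO no longer passed when HRas-KO replicate 1 was left out (adjusted p = 0.0608), nor without HRas-KO replicate 3 (0.200) or DKO replicate 5 (0.0692). That from NRas-KO did not pass when NRas-KO replicate 2 (0.0755) or 3 (0.0534) was left out. Against Control, Gli1 was called without Control replicate 3 (0.0413), DKO replicate 2 (0.0324) or DKO replicate 3 (0.0268). Without the 5 arrays high in skeletal muscle genes the differences were -0.43 against HRas-KO (adjusted p = 0.129) and -0.46 against NRas-KO (adjusted p = 0.233), and over all alternatives tried adjusted p ran between 0.00929 and 0.200 for the first and between 0.00371 and 0.233 for the second. In NAC lungs Gli1 read 6.02, 6.002, 6.13 and 5.95 in DKO+NAC and 5.96, 5.76, 5.80 and 5.87 in Control+NAC, with a difference of 0.18 ± 0.13 (adjusted p = 0.689). The DKO against Control difference of Gli1 was 0.62 ± 0.19 higher in NAC than in untreated lungs, which did not pass in the test of that change (adjusted p = 0.128).

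Smo, the transducer that Ptch1 restrains, had its lowest group mean in untreated DKO lungs. It read 7.78, 7.96, 7.99, 8.26 and 7.87 in DKO, 8.08, 8.26 and 8.51 in HRas-KO, 8.40, 8.41 and 8.58 in NRas-KO and 8.36, 8.60 and 8.22 in Control. All DKO arrays lay below NRas-KO and only DKO replicate 4 lay above the lowest Control array. Neither difference passed: -0.49 ± 0.15 against NRas-KO (adjusted p = 0.0624) and -0.42 ± 0.15 against Control (adjusted p = 0.142). With the 2 T195 arrays left out both passed, at adjusted p = 0.0109 and 0.0372. Those are NAC arrays, so both differences stayed at -0.49 and -0.42, and only the pooled spread changed. They were left out after their low Smo values were seen, so this pass is no support for a DKO difference. The first also passed without DKO replicate 4 (0.0324). The range of adjusted p over all alternatives was 0.0109 to 0.609 for the first and 0.0372 to 0.587 for the second.

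Shh, Hhip, Sufu, Gli2 and Gli3 were not called in any comparison of untreated genotypes. For Hhip, whose protein sequesters ligand and which like Ptch1 is a Gli target, DKO read 9.89, 10.52, 9.89, 10.24 and 10.02 and Control 10.14, 10.26 and 10.37, a difference of -0.14 ± 0.20 (95% confidence interval -0.56 to 0.27, adjusted p = 0.820). Hhip therefore showed no difference that these arrays could resolve where Ptch1 and Gli1 had their lowest means. For Shh, 1 further probe set that the annotation lists together with another gene was not used. The Shh probe set used (17435636) read below the array median on all 28 arrays, from 4.18 to 4.98, a level at which RMA compresses changes. Its DKO against Control difference was 0.22 ± 0.17 (adjusted p = 0.608).

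**Figure D3:**
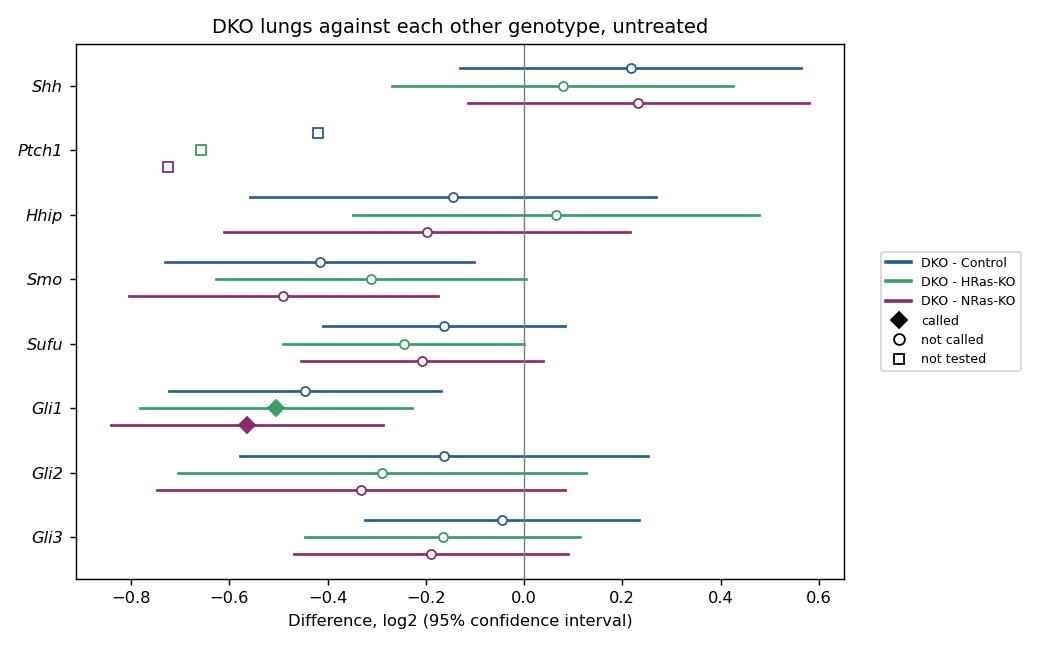
Difference (log2, x axis) of untreated DKO lungs from Control, HRas-KO and NRas-KO lungs for each gene, with 95% confidence intervals for tested genes; filled diamonds are called, open circles not called, and open squares are Ptch1, which was not tested here and has no interval. Only the Gli1 differences of -0.51 and -0.56 against the single knockouts are called.

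In the NAC arm no gene of all 22180 was called in any genotype comparison. The share called was 0% for DKO+NAC against Control+NAC (2116 genes at an unadjusted p under 0.05), 0% for HRas-KO+NAC against Control+NAC (1408), 0% for NRas-KO+NAC against Control+NAC (2321), 0% for DKO+NAC against HRas-KO+NAC (1482), 0% for DKO+NAC against NRas-KO+NAC (826) and 0% for the departure from additive (1199). Accordingly 0 of the 8 genes, Ptch1 included, were called there by limma. The smallest unadjusted p-values among the 8 belonged to Gli1 (0.35 ± 0.14, unadjusted p = 0.0193, adjusted p = 0.394) and Hhip (-0.49 ± 0.21, unadjusted p = 0.0274, adjusted p = 0.421), both in NRas-KO+NAC against Control+NAC. Without the T195 arrays the Hhip difference was -0.16 (adjusted p = 0.907, and 0.202 to 0.991 over all alternatives).

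Between arms, the cytoplasmic inhibitor Sufu and the factors Gli2 and Gli3 had lower levels with NAC. Of the 7 genes tested, 1 was called in HRas-KO (11.8% of all genes), 3 in NRas-KO (6.42%), 1 in Control (13.5%) and 0 in DKO (12.2%), all calls being lower with NAC. Sufu was the call in HRas-KO and Control, and Sufu, Gli2 and Gli3 were those in NRas-KO. The share called in HRas-KO and Control, 1 of 7, lay near the background, and arm and code start cannot be told apart in any of these comparisons.

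Sufu (probe set 17360022) read 6.91, 7.12, 6.79 and 6.96 in DKO+NAC against 7.34, 7.13, 7.40, 7.43 and 7.01 in DKO lungs, and 7.04, 7.19, 6.88 and 7.05 in Control+NAC against 7.42, 7.66 and 7.19 in Control lungs. The Control pair met at 7.19 without overlapping, and DKO replicate 5 was the untreated DKO array that overlapped. The difference was -0.47 ± 0.13 in HRas-KO (adjusted p = 0.0204), -0.53 ± 0.13 in NRas-KO (adjusted p = 0.0173), -0.39 ± 0.13 in Control (adjusted p = 0.0380) and -0.32 ± 0.11 in DKO, which did not pass (adjusted p = 0.0571). A second, dimmer Sufu probe set (17365398, 4.49 to 5.28) did not follow it: its NAC differences were 0.15, -0.07, -0.13 and 0.00 in DKO, HRas-KO, NRas-KO and Control, none called, and it correlated at -0.02 with the brighter set over the 28 arrays. The NRas-KO difference did not pass when NRas-KO replicate 2 (adjusted p = 0.0653) or 3 (0.0564) was left out, without NRas-KO+NAC replicate 1 (0.0572) or 2 (0.0956) and without the T195 arrays (-0.45, 0.103), with 0.0117 to 0.328 over all alternatives. The HRas-KO difference did not pass when HRas-KO replicate 1 (0.138) or HRas-KO+NAC replicate 1 (0.108) was left out. The Control call was lost in 5 of 7 fits without 1 array of that pair, up to 0.254 without Control replicate 2. It was at 0.0597 with code start as a random block and at 0.0693 with only the groups compared. In DKO, Sufu was called without DKO replicate 2 (0.0490) or 5 (0.0279) or DKO+NAC replicate 2 (0.0410). The calls in HRas-KO and NRas-KO held with code start as a random block (0.0269 and 0.0214).

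Gli2, the main activator of the signal, read 5.79, 5.61 and 5.98 in NRas-KO+NAC, against 6.53, 7.03 and 6.62 in NRas-KO lungs. The groups did not overlap, and the difference was -0.93 ± 0.23 (adjusted p = 0.0124), or 0.523 times the untreated level. In the other genotypes Gli2 differed by -0.47 ± 0.23 in HRas-KO (adjusted p = 0.200), -0.50 ± 0.21 in Control (adjusted p = 0.119) and -0.27 ± 0.19 in DKO (adjusted p = 0.389), none of them called. Gli3, mostly a repressor, read 6.66, 7.003 and 6.96 in NRas-KO+NAC against 7.24, 7.59 and 7.45 in NRas-KO lungs, a difference of -0.55 ± 0.15 (adjusted p = 0.0274). NRas-KO replicate 2 had both the highest Gli2 and the highest Gli3 of its group and was among the 5 arrays high in skeletal muscle genes. Without those 5, Gli2 differed by -0.78 (adjusted p = 0.0276) and Gli3 by -0.47 (adjusted p = 0.151). Without that array alone neither was called (0.0838 for Gli2, 0.132 for Gli3). Gli2 was also lost without NRas-KO+NAC replicate 2 (0.0633), and Gli3 without NRas-KO replicate 3 (0.0758) or NRas-KO+NAC replicate 1 (0.131). With code start as a random block both were called (0.0185 for Gli2, 0.0286 for Gli3), and over all alternatives adjusted p ran between 0.00856 and 0.604 for Gli2 and between 0.0170 and 0.243 for Gli3.

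Gli1 in Control lungs came close to a call, with 5.96, 5.76, 5.80 and 5.87 in Control+NAC against 6.34, 6.41 and 6.03 in Control. The groups did not overlap, and the difference was -0.41 ± 0.14 (adjusted p = 0.0503, with 0.0239 without Control replicate 3 and 0.0122 to 0.221 over all alternatives). Hhip differed the other way in Control, by 0.44 ± 0.21, with 10.79, 10.84, 10.60 and 10.56 in Control+NAC against 10.14, 10.26 and 10.37 in Control (adjusted p = 0.173, and 0.0465 without the T195 arrays, with 0.0225 to 0.378 over all alternatives). No T195 array belongs to these groups, so leaving them out kept the Hhip difference at 0.44 and changed only the pooled spread. These groups did not overlap either. How many of all genes had no overlap of arrays, here or in the other comparisons, was not counted. The change of the DKO against Control difference between arms was called for 0 of the 7 genes and 0.388% of all genes (86), and that of the departure from additive for 0 of the 7 and 0% of all genes (0, with 1304 at an unadjusted p under 0.05).

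**Figure D4:**
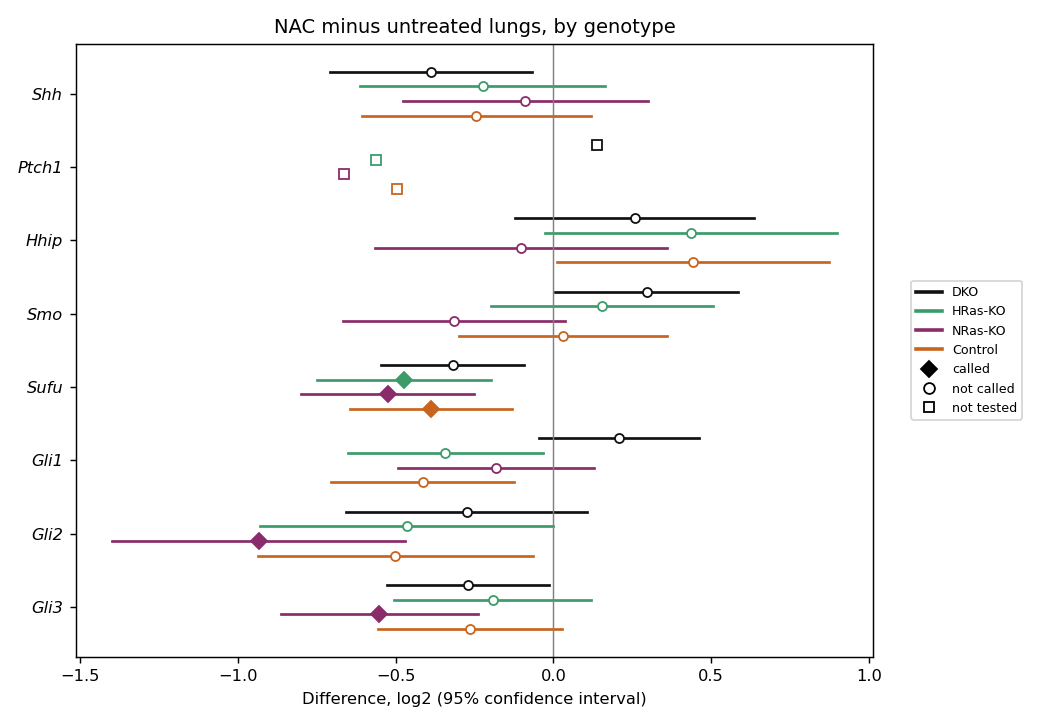
Difference (log2, x axis) between NAC and untreated lungs in DKO, HRas-KO, NRas-KO and Control for each gene, with 95% confidence intervals for tested genes; filled diamonds are called, open circles not called, and open squares are Ptch1, not tested here and drawn without an interval. Sufu lies below 0 in all 4 genotypes, and the called points are Sufu in 3 genotypes and Gli2 and Gli3 in NRas-KO.

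Marker lists of several lung cell types lay lower in the NAC arm, most of the pathway acting in the mesenchyme. Of 16 lung fibroblast and myofibroblast genes, 6 fell and 1 rose in DKO with NAC (12.2% of all genes called), 4 fell in HRas-KO (11.8%), 6 fell in NRas-KO (6.42%) and 3 fell in Control (13.5%). Col1a1, a fibrillar collagen, fell in every genotype, by 1.24 in DKO, by 1.06 in HRas-KO, by 1.26 in NRas-KO and by 1.01 in Control. The mean of the list, relative to each gene's mean, lay between -0.26 and -0.01 in DKO+NAC and -0.07 and 0.18 in DKO, between -0.12 and -0.02 in HRas-KO+NAC and 0.02 and 0.16 in HRas-KO, between -0.29 and -0.07 in NRas-KO+NAC and 0.06 and 0.27 in NRas-KO, and between -0.11 and 0.02 in Control+NAC and 0.04 and 0.11 in Control. With this mean as a covariate, the NAC difference in NRas-KO was -0.41 for Gli2 (adjusted p = 0.604), -0.43 for Sufu (0.328) and -0.57 for Gli3 (0.243), the last as large as without it. Sufu then differed by -0.43 in HRas-KO (0.0560) and -0.36 in Control (0.0716), so that none of the 5 calls passed. Without the covariate these Sufu differences were -0.47 and -0.39, so they changed little in size. In NRas-KO, Gli2 differed by -0.93 and Sufu by -0.53 without it, so both were smaller with it, Gli2 the most. The covariate also gained calls, among them Hhip and Gli1 in Control and Hhip in DKO. The cause of the lost and gained calls was not tested.

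The smooth muscle list has 11 genes, and its mean was taken over 10, with the Hedgehog gene Hhip left out. It averaged -0.23 in DKO+NAC and 0.15 in DKO, -0.13 in HRas-KO+NAC and 0.34 in HRas-KO, -0.09 in NRas-KO+NAC and 0.14 in NRas-KO, and -0.27 in Control+NAC and 0.16 in Control. Pericyte genes (10) averaged -0.13 in DKO+NAC and 0.14 in DKO, -0.15 in HRas-KO+NAC and 0.11 in HRas-KO, -0.15 in NRas-KO+NAC and 0.16 in NRas-KO, and -0.10 in Control+NAC and 0.12 in Control. The lung epithelial list was lower in the same direction, at -0.09 in DKO+NAC and 0.03 in DKO, -0.10 in HRas-KO+NAC and 0.12 in HRas-KO, -0.07 in NRas-KO+NAC and 0.10 in NRas-KO, and -0.07 in Control+NAC and 0.11 in Control. The part of these 3 lists in the differences between arms was not tested. In untreated DKO against Control the list of 16 lung fibroblast and myofibroblast genes had 2 lower genes and 1 higher. Of all genes, 3.83% were called there. The lower were Tcf21, a mesenchymal transcription factor (-0.69), and Eln, the elastin gene (-0.65), and the higher was Tgfbi (0.39).

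Among NAC arrays, both arrays with code start T195 lay outside the range of the other 12 in Hhip, Smo, Gli2 and Shh. How many of all genes did so was not counted, so this is not shown to be particular to Hedgehog genes. Hhip read 9.83 in DKO+NAC replicate 1 and 9.54 in NRas-KO+NAC replicate 2, against 10.41 to 10.84 on the other 12 NAC arrays. Smo read 7.79 and 7.73 there, against 8.27 to 8.56, and Gli2 read 5.61 on both, against 5.79 to 6.41. Shh was the opposite, at 4.81 and 4.74 against 4.18 to 4.63. For Ptch1, Sufu, Gli1 and Gli3 at least 1 of the T195 arrays lay within the range of the others. DKO+NAC replicate 1 held the highest Ptch1 among NAC arrays (8.79, against 8.12 to 8.62).

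Over the deviations of the 28 arrays from their group means, Hhip and Smo correlated at 0.76, Hhip and Gli2 at 0.59, Shh and Hhip at -0.70 and Shh and Smo at -0.62. Without the T195 arrays (26 arrays) these were 0.58, 0.51, -0.58 and -0.44, so the signs remained. Among the 14 untreated arrays alone Hhip and Smo correlated at 0.46 and Shh and Hhip at -0.66. Ptch1 and Gli1, the pair of Gli targets with their lowest untreated means in DKO, correlated at -0.15, with -0.42 among the 14 untreated and 0.31 among the 14 NAC arrays. Arrays of 1 code start and the shared normalization join these points, and the values are descriptions. Those with Shh rest on a probe set below the array median on all 28 arrays.

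**Figure D5:**
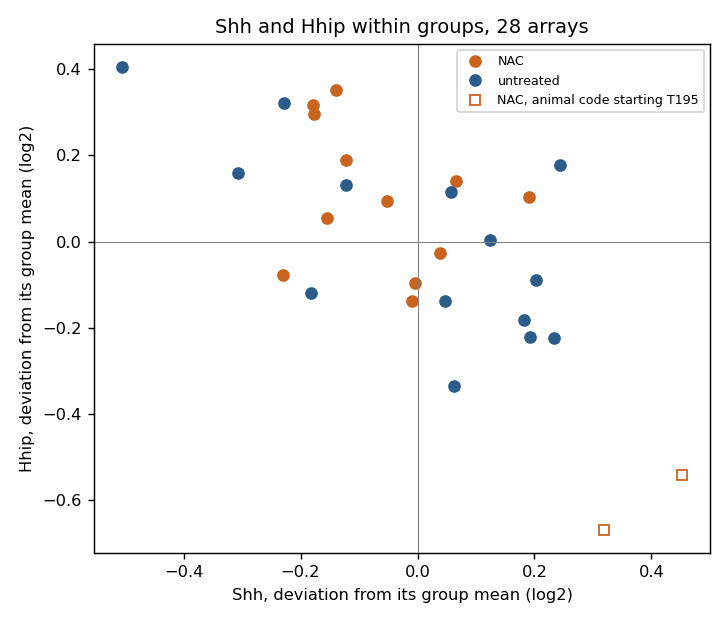
Deviation of Hhip (y axis, log2) against that of Shh (x axis, log2) from their group means on 28 arrays, NAC in orange and untreated in blue, with open squares for the arrays with code start T195. Hhip was lower where the Shh probe set read higher (r = -0.70, and -0.58 over the 26 arrays without the open squares). Shh read below the array median on all 28 arrays.

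The genes whose deviations from group means followed Ptch1 most closely over the 28 arrays were Ncoa5 (r = 0.80), C2cd5 (0.79), Czib (0.79), Apoe (0.79) and Iars (0.78). For Gli1 they were Tekt3 (0.70), Acads (0.67), Rbfa (0.66), Lonrf1 (0.65) and Slc25a38 (0.65). No Hedgehog pathway gene was among them.

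Of 77 other genes written into 5 lists of the pathway, 68 were measured. In untreated DKO against Control lungs 1 of the 68 was higher and 4 were lower (3.83% of all genes called), in DKO against HRas-KO 1 and 6 (5.63%), and in DKO against NRas-KO 3 and 3 (4.95%), with list medians of -0.09, -0.11 and -0.11 beside 0.02, 0.01 and 0.01 over all genes. Arrb2, which codes for a beta-arrestin that helps carry Smo to the cilium, fell by 0.66 against Control, 0.73 against HRas-KO and 0.74 against NRas-KO. It was the only one of the 68 called for the untreated departure from additive (-0.81 ± 0.15, adjusted p = 0.0199), where 0.225% of all genes (50) were called. Dyrk2, a kinase that marks Gli2 for degradation, fell by 0.67, 0.54 and 0.64 in the same order. Ccnd1, the cyclin D1 gene induced by many growth signals, fell by 1.03, 1.15 and 1.02. Dync2h1, the motor of retrograde transport in the cilium, rose by 0.35, 0.52 and 0.42.

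By role, none of 9 ligand and release genes and none of 4 receptors and co-receptors was called in DKO against Control. Of 14 Gli factors and cytoplasmic regulators 2 fell, Dyrk2 and the Gli-like factor Glis2 (-0.50). Of 22 ciliary genes and Smo regulators Dync2h1 rose and Arrb2 fell, and of 19 named target genes 1 fell, Ccnd1. The ligand Dhh fell by 0.70 in DKO against HRas-KO only among the 3 pairings with DKO, a contrast between pairings that was not tested.

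With NAC, 8 of the 68 rose and 4 fell in DKO (12.2% of all genes called), 8 and 7 in HRas-KO (11.8%), 2 and 7 in NRas-KO (6.42%) and 9 and 6 in Control (13.5%). Csnk1a1, a kinase that acts on Smo and the Gli factors, rose in all 4 genotypes, by 0.38, 0.52, 0.45 and 0.59, as did Spop, an adaptor that marks Gli proteins for degradation, by 0.47, 0.41, 0.45 and 0.40. The co-receptor Boc fell in HRas-KO (-0.51), NRas-KO (-0.57) and Control (-0.40), and Glis2 fell in the same 3 genotypes by 1.06, 0.87 and 0.88. Ift88 and Ift80, components of transport into the cilium, rose in HRas-KO by 0.80 and 0.46 and in Control by 0.55 and 0.55.

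Within 1 code start few comparisons could be made. In the starts that held untreated HRas-KO and Control arrays (C118 and H058), Ptch1 was higher in HRas-KO by 0.13 and 0.19, and in NRas-KO by 0.10 and 0.41. Gli1 differed by -0.23 and 0.38 in HRas-KO and by -0.04 and 0.20 in NRas-KO, so its sign was not shared. Among NAC arrays, T453 held all 4 genotypes, with a Ptch1 departure from additive of -0.34, and the DKO+NAC against Control+NAC difference of Ptch1 was -0.22 there and 0.24 in T445. Both T453 values rest on DKO+NAC replicate 4, the array with Nras at 8.08. No start held an untreated DKO array with another group.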

How the data were processed

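The files held 1 table of log2 values, 1 per probe set and array, as deposited by the authors. Per the submitters' processing notes they were made with RMA in affy (versions, and whether all arrays were normalized together, are not given in the sources used here). RMA corrects background, normalizes by quantiles and summarises probes, which compresses changes of dim genes. Of 41345 probe sets, 23521 had 1 gene symbol in the platform annotation, 1814 several and 16010 no entry. A gene was represented by its brightest set, giving 22180 genes. limma 3.58.1 in R 4.3.3 (lmFit, eBayes) fitted 8 group means to 28 arrays (20 residual and 5.95 prior degrees of freedom), with 18 comparisons and Benjamini-Hochberg adjustment over all genes in each. The script was tested on simulated data. Depth does not apply, and the number of arrays limits the precision. Hras was not analysed here.

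The members, gene lists and tests were chosen with earlier results of these data known. Named genes were the 8 members, Nras, listed pathway genes that were called, the neighbours of the choosing threshold and the 5 genes most like Ptch1 and Gli1. Alternatives covered the rows used, filters, scaling, moderation, weights, the arrays fitted, blocks and each array left out. Replicate numbers did not pair arrays: over 37 same-numbered pairs of 1 arm the mean correlation of deviations was 0.02, with -0.33 the lowest. No 2 of 378 array pairs were identical, and the highest correlation was 0.9933.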

Additional observations from a re-analysis of the deposited data

Results flagged for a closer look

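In groups of 4 or 5 arrays, 3 of 24 tests of the members found an array far from the rest of its group by Dixon's test, where chance gives about 5%. Shh read 4.81 in DKO+NAC replicate 1, against 4.18 to 4.23 on the other 3 DKO+NAC arrays. Ptch1 read 8.12 in Control+NAC replicate 3, against 8.33 to 8.36 in the other 3 Control+NAC lungs. Gli2 read 5.91 on the same Control+NAC array, against 6.10 to 6.12. DKO+NAC replicate 1 carries the code start T195, and leaving it out gave a Shh difference of -0.54 between DKO+NAC and DKO, which limma called (adjusted p = 0.0265, with 0.0197 to 0.883 over all alternatives), beside -0.39 with it (adjusted p = 0.107). The array was flagged for its high Shh, so a larger difference without it follows from that choice and is no support for a change. Shh also read below the array median on all 28 arrays.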

How the results depend on the processing

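Array number limits these results: with 3 to 5 arrays a group, 1 array or setting moved many calls. Over 20 summary results and 483 alternative values, 427 stayed close to the reported one, 55 moved and 1 reversed, and over 33 differences of single genes and 756 values 678 kept direction and side of the threshold, 44 lost the call, 31 gained it, 1 reversed and 2 moved. The number of tested genes called in untreated DKO against Control was 0, and 1 with the dimmest 40% of genes left out, with array weights or without the T195 arrays (0 to 1 with each array left out). Against HRas-KO it was 1, and 0 with only the groups compared or a replicate block (0 to 1). Against NRas-KO it was 1, and 2 with the dimmest genes left out, quantile normalization repeated, array weights or without T195, and 0 with only the groups compared or a replicate block (0 to 2). Without the 5 arrays high in muscle genes both were 0, and with the muscle mean as covariate the HRas-KO count was 0. For NAC against untreated lungs, DKO had 0, but 1 with the dimmest genes left out, array medians subtracted, the replicate block or the fibroblast covariate, and 2 without T195 (0 to 2). HRas-KO had 1, and 0 with the mean of a gene's probe sets (0 to 1). NRas-KO had 3, but 1 with only the groups compared and 0 with the fibroblast covariate (0 to 3). Control had 1, but 0 with the mean of probe sets, array medians subtracted or code start as a random block, 2 with the dimmest genes left out, array weights, only the groups compared, without T195 or with the fibroblast covariate, and 3 without the 5 muscle arrays (0 to 2). With only the groups compared or the fibroblast covariate, those 2 were Hhip and Gli1, and the Sufu call was lost. The Ptch1 departure from additive in NAC lungs ran between -0.20 and 0.0192 with each array left out, and Gli2 in DKO+NAC against DKO was 0.0214 with the fibroblast covariate (adjusted p = 0.974). Leaving out the T195 or muscle arrays and the 2 covariates were chosen after seeing the data. The T195 arrays are in neither the untreated nor the Control+NAC groups. Leaving them out therefore moved the counts of those comparisons only through the pooled spread. The replicate block, whose numbers did not pair the arrays, turned the Gli1 differences to -0.38 against HRas-KO (adjusted p = 0.114) and -0.44 against NRas-KO (0.0701) and the NAC difference of Sufu in DKO to -0.38 (0.0389). Code start correlated deviations at 0.15 over 28 pairs sharing one, and as a fixed block it could not be fitted for untreated DKO or across arms. The cause of these changes was not tested.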

Other observations

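Over all 8 groups the highest group mean was NRas-KO for Ptch1, Smo, Gli1, Gli2 and Gli3 and HRas-KO for Sufu, with Hhip highest in Control+NAC. The lowest was DKO for Smo and Gli1, DKO+NAC for Sufu, NRas-KO+NAC for Gli2 and Gli3, Control+NAC for Ptch1 and HRas-KO for Hhip. Shh had its highest mean in DKO (4.74) and its lowest in Control+NAC (4.28). How often all genes had their extremes in these groups was not counted. In DKO+NAC replicate 4, the array with Nras at 8.08, Ptch1 read 8.15, the lowest of its group, and without this array the NAC-arm departure of Ptch1 from additive was 0.02 (adjusted p = 0.991).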
